A study of Homo sapiens with 12 samples.

Results

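The core machinery of non-homologous end joining was represented by 10 genes, and their signals were followed after knockdown of MARK2 in 3 lung cancer cell lines. The members, XRCC5, XRCC6, PRKDC, DCLRE1C, POLL, POLM, LIG4, XRCC4, NHEJ1 and PAXX, were taken by gene symbol from the annotation of the array. All 10 were on the array, out of 18132 genes represented, and they held 32 of the 49395 probe sets, a probe set being a group of short probes that is read as one signal. MARK2 is a protein kinase of cell polarity whose targets include proteins on microtubules, and the series relates it to the DNA damage response and to cisplatin. Total RNA was hybridised to Affymetrix PrimeView arrays. The 6 groups were H1993 KD, H1993 PLKO CONTROL, H1693 KD, H1693 PLKO CONTROL, H1650 KD and H1650 PLKO CONTROL, with 2 arrays each that the labels call biological replicates. H1993, H1693 and H1650 are established lines of non-small cell lung cancer, chosen by the submitters for high MARK2. Cells of every group had been transduced with a lentivirus: in the KD groups it carried a short hairpin RNA against MARK2, and in the control groups it was the empty vector pLKO. The sources used here do not name the hairpin, a hairpin without a target was not analysed here, and no group was treated with cisplatin. Each line stands for itself, so a difference between lines is a difference between single cell lines.

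Non-homologous end joining seals DNA double-strand breaks without a template and works in all phases of the cell cycle. The Ku ring slides onto the broken ends and recruits a large protein kinase, nucleases and polymerases trim and fill the ends, and a dedicated ligase complex held in place by scaffold proteins closes the break. In tumour cells the pathway joins most breaks made by ionising radiation. Platinum crosslinks, the lesions of a drug class used in lung cancer, are mainly handled by other repair pathways.

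All values are log2 signals, so a difference of 1 is a doubling, and a gene is described by its brightest probe set unless another is named. Array medians lay between 7.13 and 7.32, and the correlation between the replicate arrays of a group was 0.995 to 0.998 across probe sets. MARK2 itself fell by 2.35 in H1993 KD against its control (limma adjusted p = 6.47e-06) and by 1.27 in H1693 KD (limma adjusted p = 0.000258). In H1650 its change was -0.29 (limma adjusted p = 0.156; it passed, at -0.56, without H1650 KD replicate 1 and, at -0.44, under quantile normalisation), and MARK2 was higher in H1993 than in H1650 controls by 3.18, so directions in that line compare the arrays labelled KD with their controls. The H1650 arrays also stood apart in RNA integrity: the 3' minus 5' difference of the GAPDH control probe sets averaged 6.82 in H1650 KD and 2.68 in H1650 PLKO CONTROL, against -0.10 to -0.0025 in the groups of the other lines. RNA integrity and knockdown cannot be told apart in H1650. The epithelial markers EPCAM, CDH1, KRT18 and KRT19 were at 12.05 or above on all 12 arrays, while KRT7 and KRT8 were at 6.37 or above. PTPRC of blood cells and DCN of fibroblasts stayed under a log2 signal of 5 on all 12. The other measured markers of these cells and of endothelial cells did not. CD3E, COL1A1, COL1A2, PDGFRB, PECAM1, CDH5 and VWF were above 5 on all 12 arrays and CD14 on 11. COL1A1 lay between 7.99 and 10.53 and VWF between 6.89 and 7.29. The mean of the 3 measured blood markers was 6.31 and 6.40 on the H1993 KD arrays and no higher than 6.08 in their control. There CD14 changed by 0.50 (limma adjusted p = 0.0559) and CD3E by 0.09 (0.658). The mean of the 4 fibroblast markers was 6.72 to 6.73 in H1693 KD and 6.57 to 6.58 in its control. COL1A1 changed there by 0.67 (limma adjusted p = 0.00438), COL1A2 by -0.0016 and PDGFRB by -0.026. The mean of the 6 epithelial markers was 12.66 to 12.74 in H1650 KD and 13.56 to 13.59 in its control. In that line KRT8 changed by -4.47, KRT18 by -0.85, KRT7 by -0.24 and KRT19 by -0.17, while EPCAM changed by 0.45 and CDH1 by 0.03. The part of these markers in the results on end joining was not tested.

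In H1693, 6 of the 10 end joining genes fell and 1 rose after MARK2 knockdown, and in H1993 4 fell while the other 6 did not pass the threshold. XRCC4, NHEJ1, DCLRE1C and XRCC5 fell in both lines, and the largest falls were those of XRCC4 and PRKDC in H1693, to 53.5% and 54.3% of the control signal. In H1650 the picture differed: XRCC4, LIG4 and POLM rose and PAXX fell. A gene counted as changed at a limma adjusted p under 0.05 (Benjamini-Hochberg) over all 16205 genes tested, and all 10 members were tested. By the same rule 33.4% of all genes were called in H1993 (14.5% lower and 18.9% higher), 33% in H1693 (15.9% lower and 17.1% higher) and 53.4% in H1650 (16.7% lower and 36.7% higher). The median change of the members was -0.21 in H1993, -0.35 in H1693 and 0.06 in H1650, beside 0.02, -0.02 and 0.15 for all genes tested. The H1650 values stand against that shift of 0.15: under quantile normalisation it was 0.037, 57.7% of the calls in H1650 were higher, against 68.8% as deposited, and 3 members fell and 3 rose. The mean of all probe sets of a gene gave 8 calls among the members in H1650, 5 lower and 3 higher. As RNA of whole cultures was read, fewer expressing cells and less RNA per cell cannot be told apart. Without any one of the 4 H1993 arrays the count there was 1 or 2, and with only the H1993 arrays in the fit it was 2; without H1693 KD replicate 1 or H1693 PLKO CONTROL replicate 1 the count in H1693 was 4.

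**Figure D1:**
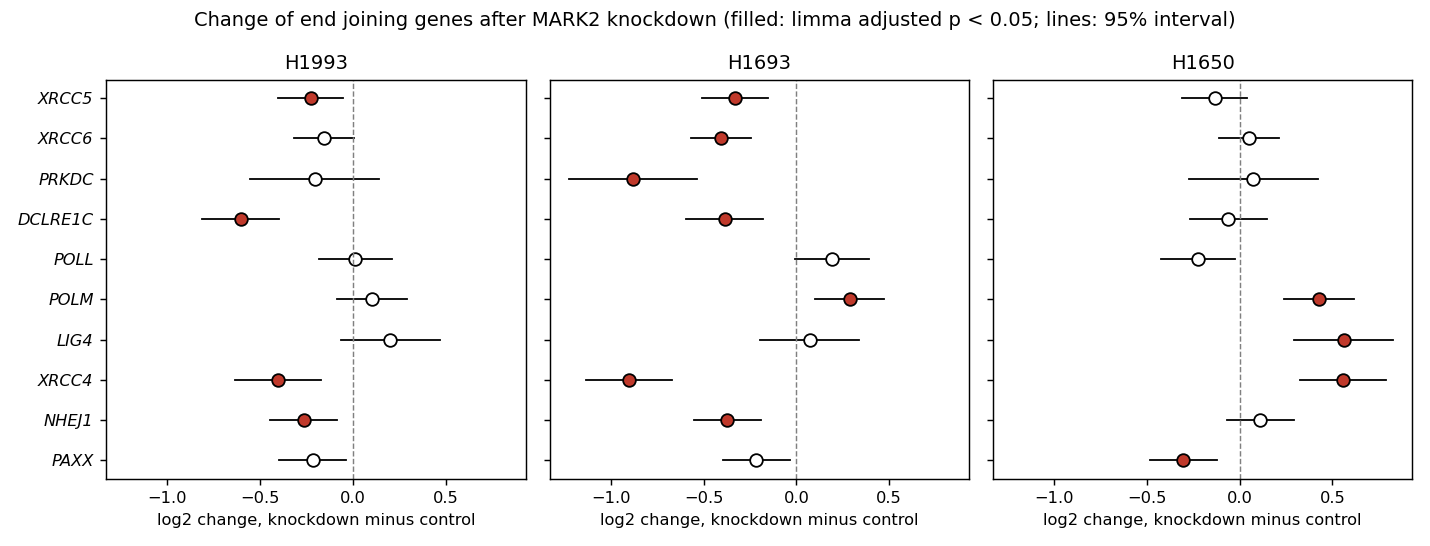
Change of each end joining gene in 3 lines, as the log2 signal of MARK2 knockdown minus that of the pLKO control on the horizontal axis, with the limma 95% interval as a line and filled points for limma adjusted p under 0.05. In H1693 6 genes lie left of 0 with filled points and POLM lies right of it; in H1993 4 do, and in H1650 XRCC4, LIG4 and POLM lie to the right and PAXX to the left.

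Of the 6 genes that fell in H1693, 4 had a promoter in the RefSeq table of assembly GRCh38.p14 used here, as had 8 of the 10 members, and their windows are shown beside that of POLM, the member that rose. Each is the most upstream window of its gene, 250 bases before to 50 bases after the annotated start, read 5′ to 3′ on the gene's own strand. Capitals mark matches, on either strand, to the CCAAT box (letters CCAAT) or the GC box (letters GGGCGG).
XRCC6, chr22:41621045-41621344, plus strand: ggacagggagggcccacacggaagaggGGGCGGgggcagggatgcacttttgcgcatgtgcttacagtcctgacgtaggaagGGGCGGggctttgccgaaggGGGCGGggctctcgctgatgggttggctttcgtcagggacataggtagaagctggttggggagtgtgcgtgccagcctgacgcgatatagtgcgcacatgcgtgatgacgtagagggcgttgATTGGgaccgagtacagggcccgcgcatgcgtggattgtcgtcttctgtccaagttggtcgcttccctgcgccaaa
DCLRE1C, chr10:14954383-14954682, minus strand: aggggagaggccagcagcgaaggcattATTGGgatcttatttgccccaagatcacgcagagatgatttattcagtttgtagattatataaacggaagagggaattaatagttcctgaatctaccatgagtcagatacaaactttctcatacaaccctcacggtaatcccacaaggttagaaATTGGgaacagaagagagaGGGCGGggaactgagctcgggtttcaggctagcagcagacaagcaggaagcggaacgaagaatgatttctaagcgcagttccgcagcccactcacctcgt
XRCC4, chr5:83077297-83077596, plus strand: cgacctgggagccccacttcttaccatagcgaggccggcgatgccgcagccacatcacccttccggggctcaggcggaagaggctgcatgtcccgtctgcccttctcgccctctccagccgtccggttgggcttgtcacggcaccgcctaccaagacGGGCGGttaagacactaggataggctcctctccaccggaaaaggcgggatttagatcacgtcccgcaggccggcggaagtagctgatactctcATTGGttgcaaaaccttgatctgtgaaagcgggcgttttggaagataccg
NHEJ1, chr2:219160766-219161065, minus strand: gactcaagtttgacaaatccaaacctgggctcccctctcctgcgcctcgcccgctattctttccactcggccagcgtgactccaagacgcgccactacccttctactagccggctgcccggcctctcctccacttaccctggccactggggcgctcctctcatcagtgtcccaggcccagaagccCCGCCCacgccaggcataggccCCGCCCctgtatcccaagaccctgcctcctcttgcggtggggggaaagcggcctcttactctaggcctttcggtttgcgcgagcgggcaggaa
POLM, chr7:44082481-44082780, minus strand: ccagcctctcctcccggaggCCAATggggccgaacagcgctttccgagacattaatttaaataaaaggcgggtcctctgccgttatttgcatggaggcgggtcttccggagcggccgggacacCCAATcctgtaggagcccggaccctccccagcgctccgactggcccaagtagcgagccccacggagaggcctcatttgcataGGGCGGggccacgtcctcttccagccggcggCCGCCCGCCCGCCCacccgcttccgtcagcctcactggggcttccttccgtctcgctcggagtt
The CCAAT box stood in the first window of 4 of the 8 members with a window used here (XRCC6, DCLRE1C, XRCC4 and POLM). It stood in 34.6% of 35116 windows in the table, counted without leaving out a chromosome. The GC box stood in 6 of the 8 and in 45.0% of all windows. These shares cover every window of a gene, while the counts of members take the first window only. Over all 15 windows of the members, the CCAAT box stood in 8 and the GC box in 10. In POLM, 3 of its 4 GC boxes overlap in one run. The E2F motif (letters GGCGGGAA, in 3.16% of all windows), the CHR motif (TTTGAA, 15.2%) and the CRE motif (TGACGTCA, 1.85%) were not in the first window of any of the 8. A second, downstream window of DCLRE1C held 1 match to the E2F motif, and 2 overlapping downstream windows of LIG4 held the CRE motif. The fallen genes and POLM did not separate by these letters: a CCAAT box and a GC box were in the windows of XRCC4, XRCC6 and DCLRE1C as well as in that of POLM. A match is a run of letters and was not tested as a bound site.

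XRCC5 and XRCC6 encode Ku80 and Ku70, the subunits of the ring that binds broken ends first. XRCC5 lies at chr2:216109348-216206293 and XRCC6 at chr22:41621295-41664041. XRCC6 was 12.66 and 12.66 on the H1693 KD arrays, against 13.06 and 13.07 on the H1693 PLKO CONTROL arrays. Its change there was -0.41 (SE 0.07, limma adjusted p = 0.00186), which is 75.5% of the control signal, and the replicates of each group were nearly the same. In H1993 the values were 13.20 and 13.11 in KD and 13.31 and 13.31 in control, a change of -0.16 with both KD arrays below both controls (limma adjusted p = 0.133). In H1650 the groups overlapped, with 13.63 and 13.46 in KD and 13.47 and 13.52 in control. By the mean of its probe sets XRCC6 was at -0.40 in H1650 (limma adjusted p = 0.000301), and it passed in H1993 by that mean (0.0209) and with the trended robust prior (0.0275).

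XRCC5 fell by 0.33 in H1693 (SE 0.08, limma adjusted p = 0.00948). The arrays read 12.48 and 12.50 in H1693 KD, against 12.89 and 12.75 in H1693 PLKO CONTROL. In H1993 they read 11.88 and 11.74 in KD and 12.04 and 12.04 in control, a change of -0.23 at the edge of the threshold (limma adjusted p = 0.0499). This H1993 call was lost without any one of the 4 H1993 arrays. It was also lost with no filter on dim genes (limma adjusted p = 0.0595), with only the H1993 arrays in the fit (0.0894) and with the replicate block (0.0816). The H1693 call was lost without KD replicate 1 or control replicate 1. In H1650 both KD arrays, 12.35 and 12.37, lay below both controls, 12.42 and 12.57, and the change of -0.13 did not pass (limma adjusted p = 0.18). The KD arrays were thus below both controls in all 3 lines for XRCC5, and in H1993 and H1693 for XRCC6.

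Each Ku gene had a second probe set, and both of these were lower in the KD arrays of every line. Probe set 11754932_x_at of XRCC6 passed the probe set test in each, with -0.27 in H1993 (limma adjusted p = 0.0175), -0.43 in H1693 (0.00147) and -0.85 in H1650 (5.58e-06). In H1650 it read 12.46 and 12.44 in KD and 13.24 and 13.35 in control, where the other XRCC6 probe set differed by 0.05. Probe set 11720312_at of XRCC5 changed by -0.50 in H1993 (limma adjusted p = 0.00102), -0.16 in H1693 (0.152) and -0.55 in H1650 (0.000209). The suffix x marks a probe set with some probes that also match other sequences.

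PRKDC encodes DNA-PKcs, the catalytic subunit that Ku recruits to form the DNA-dependent protein kinase. The gene lies at chr8:47773111-47960136. In H1693 it read 10.02 and 10.10 in KD, against 11.05 and 10.83 in control, a fall of 0.88 (SE 0.15, limma adjusted p = 0.00179), and the groups did not overlap. In H1993 the groups overlapped, with 11.51 and 11.05 in KD and 11.55 and 11.42 in control. Without KD replicate 2 the H1993 change was 0.02, so its sign rested on that array. In H1650 they overlapped too, with 11.76 and 11.53 in KD and 11.45 and 11.70 in control.

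All 4 probe sets of PRKDC fell in H1693, by 0.34 to 0.88, and all 4 passed the probe set test. In H1993 1 of the 4 fell: 11719391_a_at read 9.54 and 9.52 in KD, against 10.05 and 10.05 in control, a change of -0.52 (limma adjusted p = 0.00483). In H1650 the probe sets disagreed. Probe set 11740423_a_at read 8.55 and 8.74 in H1650 KD, against 11.30 and 11.25 in H1650 PLKO CONTROL, a change of -2.63 (limma adjusted p = 2.2e-08), while the other 3 changed by -0.06 to 0.10. That was the widest gap between probe sets of a member in any line, and it lies in the line with the high 3' minus 5' difference, whose part in it was not tested. Averaged over its 4 probe sets, PRKDC in H1650 was at -0.63 (limma adjusted p = 7.54e-05).

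DCLRE1C encodes Artemis, the nuclease that DNA-PKcs activates to open hairpins and trim ends. The gene lies at chr10:14897359-14954432. It fell by 0.61 in H1993 (SE 0.09, limma adjusted p = 0.000729), where the arrays read 7.63 and 7.57 in KD, against 8.25 and 8.16 in control. In H1693 it fell by 0.39 (limma adjusted p = 0.00948), with 6.42 and 6.48 in KD and 6.99 and 6.69 in control. The KD arrays lay below both controls in both lines. The H1993 call held under every alternative and every left-out array that was run, and the H1693 call was lost without KD replicate 1 or control replicate 1. In H1650 the change was -0.06 (limma adjusted p = 0.604), and 0.23 by the mean of its probe sets (0.0146). A second probe set, 11729488_x_at, also fell in H1993 (-0.73) and H1693 (-0.37). This probe set and the brightest, 11735416_x_at, both carry the suffix x, so some of their probes also match other sequences. The part of such sequences in the falls was not tested. The third, 11762018_at, lacks that suffix and did not follow. It changed by 0.08 in H1993, by -0.0030 in H1693 and by 0.55 in H1650, where it passed (limma adjusted p = 0.000921).

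POLL and POLM encode the polymerases lambda and mu, which fill gaps at the ends before ligation. POLM, at chr7:44072062-44082530, was the member that rose in H1693: 8.56 and 8.40 in KD, against 8.21 and 8.17 in control, a change of 0.29 (SE 0.08, limma adjusted p = 0.0238). This call was lost without H1693 KD replicate 1 or either H1693 control array, and with the mean of all probe sets in place of the brightest one. In H1993 the groups overlapped, with 9.86 and 9.71 in KD and 9.64 and 9.74 in control. In H1650 POLM rose by 0.43 (limma adjusted p = 0.00174), with 8.76 and 8.80 in KD and 8.29 and 8.41 in control, and the groups did not overlap. Other POLM probe sets went the opposite way in H1650. Probe set 11720482_a_at changed by -0.82 (6.04 and 6.14 in KD, against 6.96 and 6.86 in control) and 11720483_x_at by -0.94. With the mean of all 5 probe sets, POLM in H1650 was -0.29 (limma adjusted p = 0.0142), the reverse of the value from its brightest one. Probe set 11760547_x_at reached a log2 signal of 5 on fewer than 2 arrays and was not tested.

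POLL lies at chr10:101578882-101588270 and has 7 probe sets, of which the brightest, 11720777_x_at, carries the suffix x. Its brightest did not pass in any line, with changes of 0.01 in H1993 (limma adjusted p = 0.936), 0.19 in H1693 (0.13) and -0.22 in H1650 (0.0547). In H1693 it read 8.09 and 8.17 in KD and 7.92 and 7.95 in control, so the KD arrays were above both controls. The same held for all 7 POLL probe sets in H1693, with changes of 0.13 to 0.42, and 4 of them passed the probe set test. With the mean of its probe sets POLL passed in H1693 (0.28, limma adjusted p = 0.0162), as it did with array weights (0.0438), and in H1650 its brightest passed with a floor of 6 (0.0473) and under quantile normalisation (0.0157). In H1993 the POLL probe sets lay between -0.14 and 0.10.

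LIG4 and XRCC4 form the ligase complex: DNA ligase IV joins the strands and XRCC4 stabilises it. XRCC4 lies at chr5:83077547-83374473 and LIG4 at chr13:108207442-108218349. XRCC4 read 9.46 and 9.69 in H1693 KD, against 10.49 and 10.46 in H1693 PLKO CONTROL, a fall of 0.90 (SE 0.10, limma adjusted p = 0.000149). In H1993 it read 9.63 and 9.49 in KD, against 10.01 and 9.92 in control, a fall of 0.40 (limma adjusted p = 0.0132). In H1650 it rose by 0.56 (limma adjusted p = 0.00132), with 10.27 and 10.32 in KD and 9.62 and 9.87 in control. The groups did not overlap in any of the lines, and the sign was negative in H1993 and H1693 and positive in H1650. The H1993 call was lost without KD replicate 2, without control replicate 1, and with the mean of all probe sets (-0.27).

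All 4 XRCC4 probe sets fell in H1693, by 0.71 to 1.06, and all 4 rose in H1650, by 0.56 to 1.23. In H1650 11744799_a_at read 8.22 and 8.01 in KD, against 7.26 and 7.57 in control, and 11759722_at read 7.46 and 7.39 in KD, against 6.15 and 6.37 in control. In H1993 3 of the 4 lay lower in KD, and 1 of these passed. LIG4 was read by 1 probe set, 11724945_x_at, whose suffix x means that some of its probes also match other sequences. The part of such sequences in its values was not tested. LIG4 did not follow its partner down. It changed by 0.20 in H1993 (limma adjusted p = 0.248) and 0.07 in H1693 (0.71), where the groups overlapped at 7.16 and 7.45 in KD and 7.31 and 7.16 in control. In H1650 it rose by 0.56 (limma adjusted p = 0.00282), with 7.74 and 7.66 in KD and 7.04 and 7.23 in control.

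NHEJ1 encodes XLF and PAXX its paralogue, both scaffold proteins that resemble XRCC4 and bridge the ends. NHEJ1, at chr2:219069357-219160815, read 9.71 and 9.71 in H1693 KD, against 10.11 and 10.05 in control, a fall of 0.37 (SE 0.08, limma adjusted p = 0.00551). In H1993 it fell by 0.27 (limma adjusted p = 0.0278), with 8.64 and 8.67 in KD and 8.87 and 8.97 in control. The KD arrays were below both controls in both lines. The H1993 call was lost without either KD array, without control replicate 2, and with only the H1993 arrays in the fit (0.0529). In H1650 the groups overlapped, with 9.55 and 9.71 in KD and 9.44 and 9.59 in control. Its second probe set, 11727872_at, gave nearly the same changes, -0.32 in H1993, -0.38 in H1693 and 0.08 in H1650.

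PAXX, at chr9:136992422-136993976, was lower in the KD arrays of every line, by 0.22 in H1993 (limma adjusted p = 0.0637), 0.22 in H1693 (0.0662) and 0.30 in H1650 (0.00947), and passed in H1650. The H1650 arrays read 10.92 and 11.14 in KD and 11.34 and 11.33 in control, and the call was lost without KD replicate 1 and with only the H1650 arrays in the fit (0.0693). In H1993 PAXX passed with the mean of its probe sets (0.0309), and in both H1993 and H1693 with the trended robust prior (0.0285 and 0.0301) and with array weights (0.0479 and 0.0185). In a fit without the H1650 arrays, chosen after the data were seen, PAXX passed in H1993 (limma adjusted p = 0.0316) and in H1693 (0.0329). The second PAXX probe set was at -0.28 in H1993, at -0.09 in H1693 and at -0.73 in H1650. PAXX and XRCC5 had KD arrays below both controls in both of their probe sets in all 3 lines. How many genes outside the members did so was not counted.

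**Figure D2:**
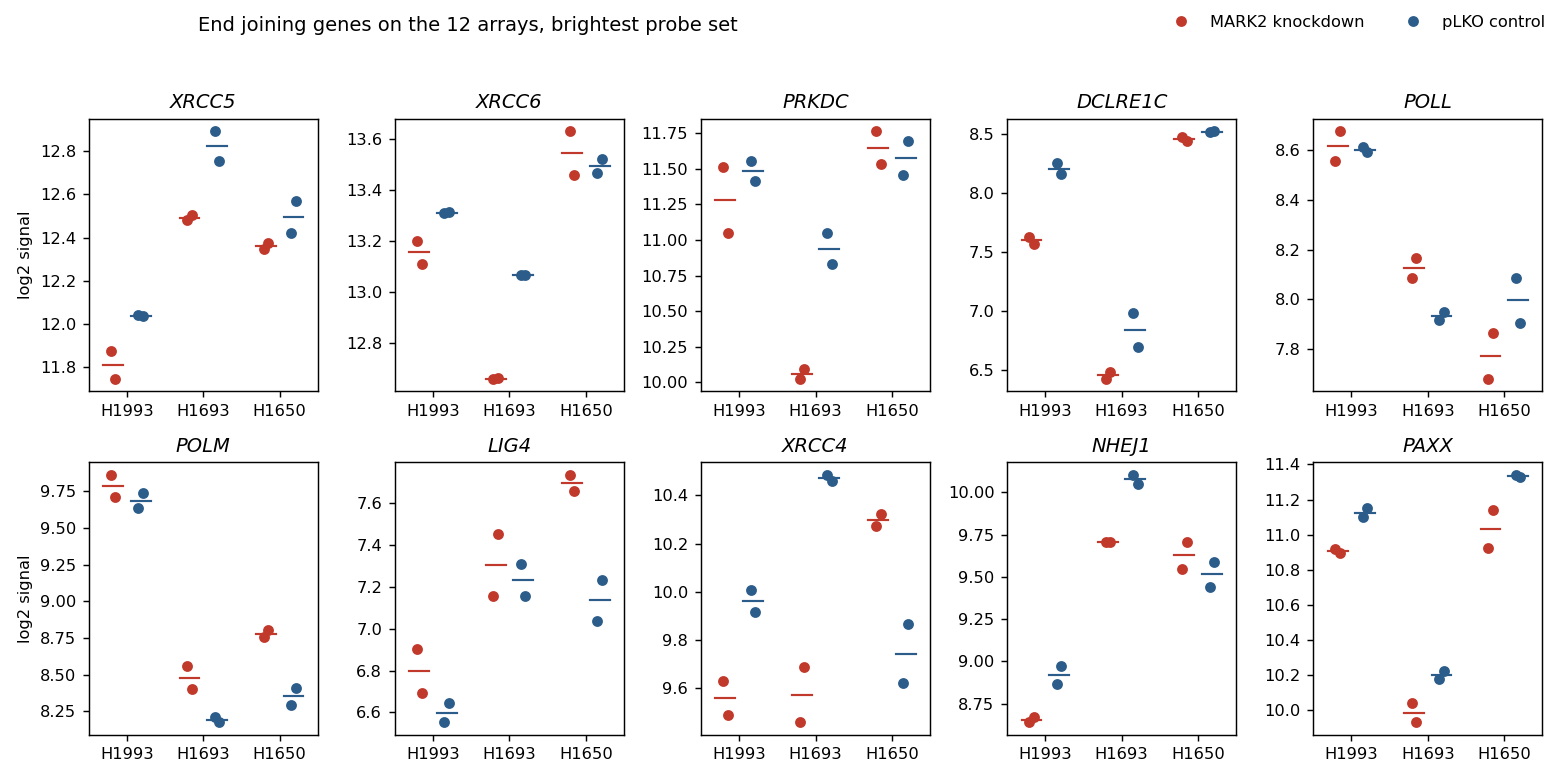
The log2 signal of each end joining gene (vertical axis, brightest probe set, with its own range in each panel) on all 12 arrays, with a point per array and a line at the group mean, MARK2 knockdown in red to the left of the pLKO control in blue in each line. XRCC4 lies lower in knockdown in H1993 and H1693 and higher in H1650, and PAXX lies lower in all 3 lines.

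Over all 32 probe sets of the members, the KD arrays lay below both controls for 18 in H1693, for 16 in H1993 and for 11 in H1650, and above both for 10, 2 and 8 in the same lines. The share of all probe sets on the array that separate in this way was not counted. These counts therefore carry no comparison with other genes. Of the 31 probe sets tested, 15 fell and 5 rose in H1693, where 29.1% of all 38924 probe sets tested were called (13.4% lower and 15.7% higher). In H1993 9 fell, beside 28.7% of all probe sets called (13.7% lower and 15% higher). In H1650 7 fell and 8 rose, beside 51.3% called (21.3% lower and 30% higher). Without 1 H1693 array 10 to 14 were called there, and without 1 H1993 array 4 or 5. Probe sets of a gene share a transcript and are not replicates.

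The probe sets of a member agreed more closely in H1693 and H1993 than in H1650. For the 9 members with 2 or more probe sets the median range of the change within a gene was 0.24 in H1993, 0.17 in H1693 and 0.67 in H1650. For all 11734 such genes it was 0.23, 0.23 and 0.53, so the wider range in H1650 was not particular to these genes. In H1650 the members' probe sets spanned -2.63 to 1.23, against -1.06 to 0.42 in H1693 and -0.73 to 0.20 in H1993.

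**Figure D3:**
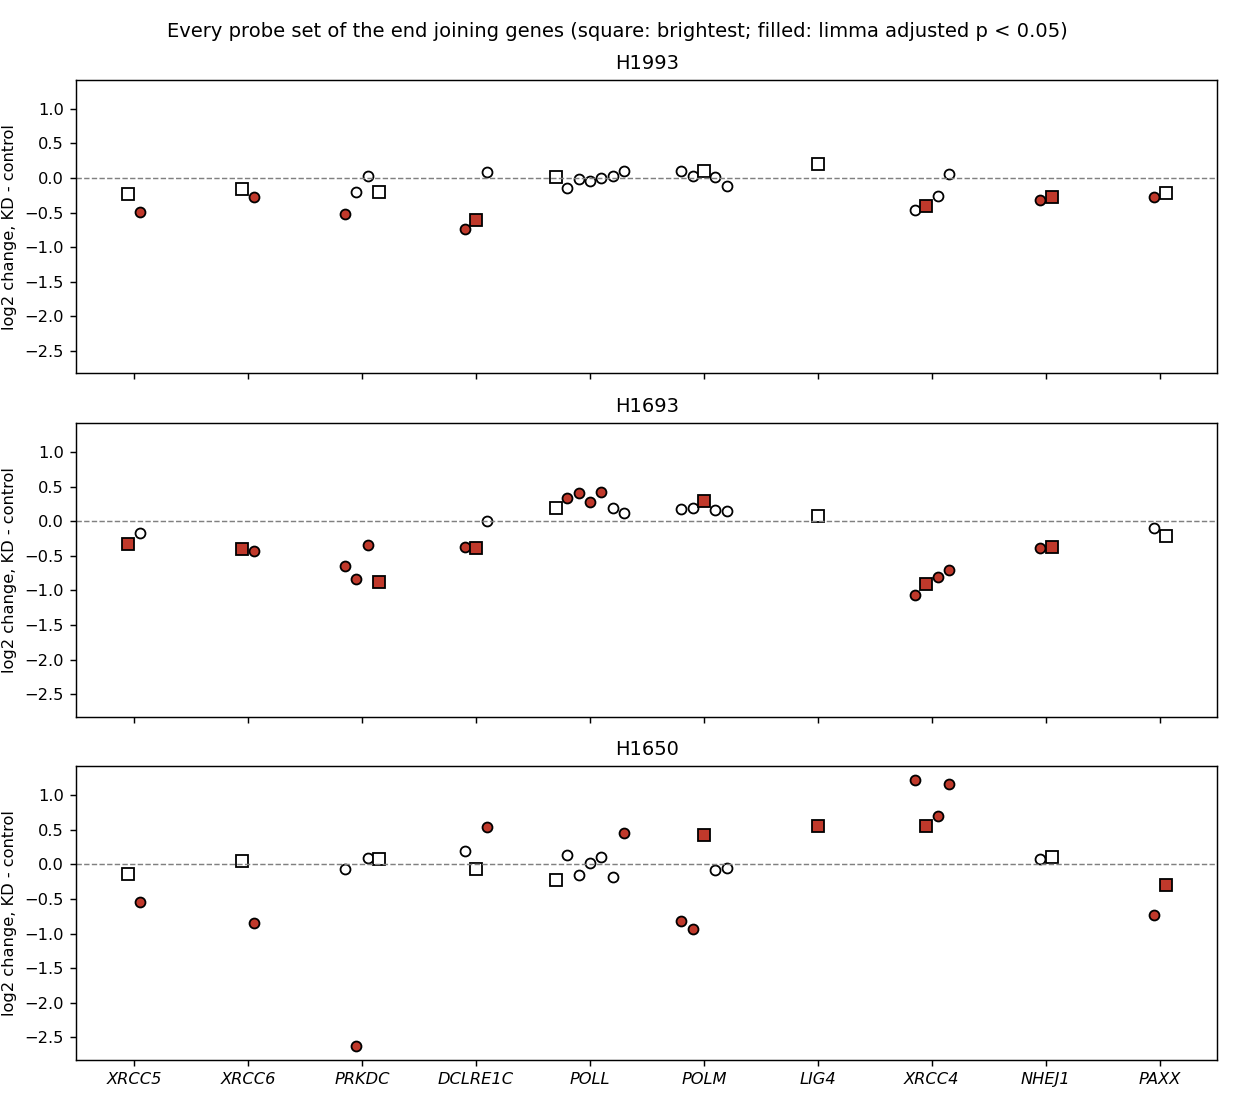
Change of every probe set of the end joining genes (vertical axis, log2 signal in MARK2 knockdown minus pLKO control), one panel per line; squares are the brightest probe set of a gene and filled symbols have a limma adjusted p under 0.05 over all probe sets tested. XRCC4 and PRKDC lie below 0 with all their probe sets in H1693, XRCC4 lies above 0 with all of them in H1650, and 1 PRKDC probe set is at -2.63 in H1650. XRCC5 in H1993, called among genes, is not called here.

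The change after knockdown differed between the 3 lines for 6 of the 10 members, by the limma F test over all genes, which called 54.9% of all genes. These were XRCC4, XRCC6, NHEJ1, PRKDC, DCLRE1C and POLL. XRCC4 had the smallest p of the 6 (limma adjusted p = 9.79e-05). The POLL call (0.0447) was lost without most single arrays and with no filter on dim genes, and that of XRCC6 (0.0107) with the mean of all probe sets (0.113). XRCC5, PAXX, POLM and LIG4 did not pass this test. Between H1993 and H1693 alone the change differed for 1 member, beside 22.1% of all genes (9.48% lower and 12.6% higher). The change of XRCC4 was less negative in H1993 than in H1693 by 0.50 (95% interval 0.17 to 0.83, limma adjusted p = 0.037), and this call was lost on leaving out any of 6 of the 8 arrays. For PRKDC the difference was 0.67 (0.18 to 1.16, limma adjusted p = 0.0543). It passed with the mean of all probe sets (0.45, limma adjusted p = 0.0158), a floor of 6 (0.0478), quantile normalisation (0.0413), the trended robust prior (0.0223) and array weights (0.03), and without H1993 KD replicate 2 (0.90, 0.0122). For DCLRE1C it was -0.22 (-0.51 to 0.07), and for NHEJ1 0.10 (-0.15 to 0.36).

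In the control arrays the end joining genes were at different levels in the 3 lines. Between H1993 and H1693 all 10 differed, with 6 higher and 4 lower in H1993, where 63% of all genes were called (32.9% lower and 30.1% higher). POLM had 2.82 times the H1693 signal in H1993 PLKO CONTROL (95% interval of the log2 difference 1.31 to 1.68). DCLRE1C was higher in H1993 by 1.37 and PAXX by 0.92, while NHEJ1 and XRCC5 had 0.448 and 0.580 times the H1693 signal. XRCC6 was higher in H1993 by 0.24, a call lost without H1993 control replicate 2 or either H1693 control, and PRKDC by 0.55, a call lost without H1993 control replicate 1 or H1693 control replicate 2. After quantile normalisation 4 members were lower and 5 higher in H1993, and XRCC6, at 0.16, was not called (limma adjusted p = 0.0544).

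The 3' minus 5' GAPDH difference was 2.68 in H1650 PLKO CONTROL, against -0.10 in H1993 PLKO CONTROL and -0.0025 in H1693 PLKO CONTROL. Cell line and RNA integrity therefore cannot be told apart where controls are compared with those of H1650. Between H1993 and H1650 controls 8 of the 10 differed, 6 lower and 2 higher in H1993, beside 63.8% of all genes (40.1% lower and 23.7% higher). POLM was higher in H1993 by 1.33 and POLL by 0.60, and NHEJ1 was lower by 0.60. After quantile normalisation of the tested genes 5 differed, 2 lower and 3 higher, and the share of all calls that were higher in H1993 went to 53.3%, against 37.2% as deposited. That scaling moved the median difference of all genes to 0.08, against -0.12 as deposited. XRCC6 and PAXX, at -0.18 and -0.21, lost their calls without any one of the 4 control arrays concerned, and without H1993 PLKO CONTROL replicate 2, where DCLRE1C (-0.31) was lost too, 5 members were called. Between H1693 and H1650 controls 7 of the 10 differed, 4 lower and 3 higher in H1693, beside 63% of all genes (38.5% lower and 24.5% higher). DCLRE1C was lower in H1693 by 1.68, to 0.312 times the H1650 signal, and PAXX by 1.13, while XRCC4 was higher by 0.73 and NHEJ1 by 0.56. The median difference of all genes was -0.12 as deposited and 0.03 after quantile normalisation, and 51.6% of calls were then higher in H1693, against 38.9%.

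The order of the control levels between lines differed from gene to gene. NHEJ1 and XRCC5 were at their highest in H1693 (10.08 ± 0.04 and 12.82 ± 0.10, SD, n = 2), then H1650 (9.51 ± 0.10 and 12.49 ± 0.11), then H1993 (8.92 ± 0.08 and 12.04 ± 0.0037). XRCC4 was highest in H1693 at 10.47 ± 0.02, and its levels in H1993 (9.96 ± 0.06) and H1650 (9.74 ± 0.18) did not differ past the threshold, although they did without H1650 control replicate 2 (0.34) and after quantile normalisation (0.46). DCLRE1C, PAXX and XRCC6 were lowest in H1693, at 6.84 ± 0.21, 10.20 ± 0.03 and 13.07 ± 0.0014. POLM and POLL were highest in H1993, at 9.69 ± 0.07 and 8.60 ± 0.02, and their differences between H1693 and H1650 did not pass. LIG4 was lowest in H1993 at 6.60 ± 0.07, PRKDC lowest in H1693 at 10.94 ± 0.15, and for neither did the difference of the other lines pass. With the mean of all probe sets the differences of XRCC5 and PRKDC between H1693 and H1650 changed sign. By that mean PRKDC was higher in H1993 than in H1650 controls by 0.90 (limma adjusted p = 1.66e-06), and POLL higher in H1693 than in H1650 controls by 0.44 (0.000329). Probe set 11719391_a_at of PRKDC averaged 10.05 in H1993 and 6.68 in H1650 controls, where the brightest averaged 11.49 and 11.57. The part of RNA integrity in the H1650 control levels was not tested.

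Around the core, 8 factors that process ends or assist joining were tested. In H1993 4 of the 8 fell, namely TDP1, WRN, APTX and CYREN, and in H1693 TDP1, SETMAR and WRN fell. Of all genes 14.5% fell and 18.9% rose in H1993, 15.9% and 17.1% in H1693, and 16.7% and 36.7% in H1650. TDP1, which removes topoisomerase I remnants from ends, passed in each line, with -0.65 in H1993, -0.74 in H1693 and 0.23 in H1650. A second TDP1 probe set, 11723323_at, was at -0.09 in H1993 (limma adjusted p = 0.412), -0.12 in H1693 (0.263) and -0.24 in H1650 (0.016). WRN, a helicase and exonuclease, changed by -0.44, -0.35 and 0.55 and also passed in each. APTX, which removes adenylate left by failed ligation, fell by 0.33 in H1993. CYREN, an inhibitor of end joining, fell by 0.20 in H1993 and by 0.40 in H1650. SETMAR changed by -0.56 in H1693. In H1650 5 rose and 1 fell, with ERCC6L2 at 0.55 and TDP2, which removes topoisomerase II remnants, at 0.49. The median change of the list was -0.25 in H1993, -0.14 in H1693 and 0.29 in H1650, beside 0.02, -0.02 and 0.15 for all genes tested. Without H1993 KD replicate 1 or H1993 PLKO CONTROL replicate 2 the count in H1993 was 2.

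Of 12 genes that sense breaks and set the choice of pathway 10 were tested, and SHLD2 and SHLD3 were not analysed here. In H1993 4 fell and 1 rose, in H1693 5 fell, and in H1650 2 fell and 2 rose. The shares of all genes were 14.5% lower and 18.9% higher in H1993, 15.9% and 17.1% in H1693, and 16.7% and 36.7% in H1650. MDC1, the adaptor that binds phosphorylated H2AX, fell by 0.88 in H1993 and 0.75 in H1693, and by 0.20 in H1650. RNF8, a ubiquitin ligase at breaks, fell by 0.33 in H1993 and 0.27 in H1693 and rose by 0.23 in H1650. TP53BP1 encodes 53BP1, which favours end joining over resection, and it rose by 0.54 in H1993 (limma adjusted p = 0.00209). RIF1, which acts with 53BP1, fell by 0.60 in H1693, and PAXIP1 by 0.45. MAD2L2, a subunit of shieldin, fell by 0.42 in H1993 and by 1.40 in H1650, and the kinase ATM fell by 0.29 in H1993 and rose by 0.96 in H1650. The median of the list was -0.13 in H1993, -0.26 in H1693 and 0.06 in H1650. The count in H1993 was 3 with the mean of all probe sets and without H1993 KD replicate 2 or H1993 PLKO CONTROL replicate 2. In H1693 it was 3 without KD replicate 1 and 2 without control replicate 1. In H1650 it was 2 without control replicate 2, with array weights and with only the H1650 arrays in the fit.

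For alternative end joining, the microhomology route around POLQ and PARP1, 9 of 10 genes were tested and RBBP8 was not analysed here. In H1693 6 of the 9 fell: FEN1 by 0.93, MRE11 by 0.86, LIG1 by 0.70, POLQ by 0.59, and PARP1 and XRCC1 by less. In H1993 PARP1, which binds breaks and builds poly(ADP-ribose), fell by 0.64, and MRE11, a nuclease that starts resection, by 0.27. In H1650 5 fell and 4 rose. The shares of all genes that fell were 14.5% in H1993, 15.9% in H1693 and 16.7% in H1650, where 36.7% rose. PARP1 changed by -3.20 there in its brightest probe set, and its 4 probe sets spanned -3.20 to 0.40. LIG1 fell by 0.89 and FEN1 by 0.78, and MRE11 rose by 0.61. The median of the list was -0.06 in H1993, -0.48 in H1693 and -0.37 in H1650. Probe set means gave 4 lower and 1 higher in H1650, and in H1993 the count was 1 with only the H1993 arrays in the fit and without either KD array or control replicate 2. These 3 lists are described by their counts beside the shares of all genes given above.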

How the data were processed

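The authors deposited log2 signals of probe sets; the submitters' processing notes name RMA and Affymetrix Expression Console, without versions. RMA corrects background, brings arrays to one distribution and summarises probes, and differences of dim genes are compressed. Symbols came from the platform annotation, with gene IDs checked against RefSeq (GRCh38.p14). Of 49395 probe sets 44994 have 1 symbol, 1832 several and 2569 none. Leaving out the last 2 kinds and 102 control probe sets left 44988, and 44961 of them matched by gene ID. The probe set with the highest mean over 12 arrays stood for its gene. A gene was tested if its log2 signal was 5 or more on 2 or more arrays, which kept 16205 of 18132 genes.

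The model had one mean per group over all 12 arrays (limma 3.58.1 under R 4.3.3, eBayes, 6 residual and 3.52 prior degrees of freedom). P-values are two-sided, adjusted by Benjamini-Hochberg over all genes, or over 38924 probe sets. The fit was tested on simulated data. Precision is limited by the number of arrays, and p-values measure the spread between arrays that the labels call biological replicates. Alternatives changed the probe set, filter, scaling, spread, moderation, weights, block and arrays. The named genes were all members, MARK2, and from each of 3 further lists up to 4 genes past the threshold with the largest change in a line. Members and lists were chosen with earlier results of these data known.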

Additional observations from a re-analysis of the deposited data

Results flagged for a closer look

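For 6 of the 10 end joining genes the change after knockdown differed between the lines by the limma F test, which called 54.9% of all genes. For 1 of these the change also differed between H1993 and H1693, in a contrast that called 22.1% of all genes. XRCC4 was at -0.40 in H1993, -0.90 in H1693 and 0.56 in H1650 (limma adjusted p = 9.79e-05 for the 3 lines, 0.037 for H1993 against H1693). XRCC6 was at -0.16, -0.41 and 0.05 in the same lines (0.0107), NHEJ1 at -0.27, -0.37 and 0.11 (0.0109), and PRKDC at -0.21, -0.88 and 0.07 (0.011). DCLRE1C was at -0.61, -0.39 and -0.06 (0.0155), and POLL at 0.01, 0.19 and -0.22 (0.0447). The H1650 arrays enter each F test, and their 3' minus 5' GAPDH difference was 6.82 in KD and 2.68 in control. The part of RNA integrity in these differences was not tested. Groups of 2 arrays were not screened for single arrays far from the others.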

How the results depend on the processing

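Against the 4, 7 and 4 end joining genes called in H1993, H1693 and H1650, leaving out 1 array gave 1 to 2, 4 to 7 and 3 to 5, the lone array being assumed to vary like the other groups. It gave 0 to 2 for the change of H1993 minus H1693 (1 called), 5 to 6 for the F test (6), and 8 to 9, 5 to 7 and 7 to 7 for control levels of H1993 minus H1693 (10), H1993 minus H1650 (8) and H1693 minus H1650 (7). Called probe sets were 4 to 5 in H1993, 10 to 14 in H1693 and 13 to 16 in H1650. With only the compared arrays 2 members and 5 probe sets were called in H1993. The mean of all probe sets gave 8 in H1650, and quantile normalisation 5 for H1993 minus H1650 controls. For the change of H1993 minus H1693 the mean of probe sets, a floor of 6, quantile normalisation and array weights gave 2 each, and the trended robust prior 3. Without the H1650 arrays, added after seeing the data, 5 were called in H1993 and 8 in H1693. With the mean of probe sets the sign turned for POLL in H1993 (-0.0091), for XRCC6 (-0.40), PRKDC (-0.63), DCLRE1C (0.23), POLL (0.023) and POLM (-0.29) in H1650, for PRKDC in H1993 minus H1650 controls (0.90), for XRCC5 (-0.13), PRKDC (0.50), POLL (0.44) and POLM (0.15) in H1693 minus H1650 controls, and for XRCC5 in the change of H1993 minus H1693 (-0.12). With quantile normalisation it turned for POLL in H1993 (-0.058), PRKDC in H1650 (-0.027), PRKDC (0.080) and DCLRE1C (0.018) in H1993 minus H1650 controls, and POLL (0.13) and POLM (0.066) in H1693 minus H1650 controls. A left-out array turned the sign of values near 0: PRKDC in H1993 (-0.44 to 0.024) and H1650 (-0.046 to 0.19), POLL in H1993 (-0.047 to 0.073), LIG4 in H1693 (-0.077 to 0.22) and XRCC6 in H1650 (-0.034 to 0.14), PRKDC in H1993 minus H1650 controls (-0.21 to 0.031), POLL (-0.15 to 0.026) and LIG4 (-0.00068 to 0.20) in H1693 minus H1650 controls, and LIG4 (-0.021 to 0.28) and PAXX (-0.057 to 0.054) in the change of H1993 minus H1693. The cause was not tested.

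The arrays share replicate numbers, and same-numbered arrays deviated with correlations of 0.286, -0.176 and -0.105 in H1993, H1693 and H1650, so the numbers were not taken to pair them. With the replicate block 3, 7 and 4 members were called in H1993, H1693 and H1650, 10, 6 and 7 for the control levels, 5 by the F test and 1 for the change of H1993 minus H1693. With crossed numbers 7 were called in H1693 and 5 in H1650.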

Other observations

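Some genes around the core also changed differently in H1993 and H1693. By the limma contrast of the 2 changes, which called 22.1% of all genes, 5 of the 9 tested genes of alternative end joining and 2 of the 10 of break sensing and pathway choice passed, each with the less negative or more positive change in H1993. FEN1, the flap nuclease, changed by -0.14 in H1993 and -0.93 in H1693 (difference 0.79, limma adjusted p = 0.00156). LIG1, the ligase of replication, changed by -0.06 and -0.70 in the same lines (0.64, 0.00176), and MRE11 by -0.27 and -0.86 (0.59, 0.00238). POLQ, the polymerase theta of microhomology joining, changed by -0.06 and -0.59 (0.53, 0.0176), and XRCC1 by 0.10 and -0.26 (0.35, 0.0348). RIF1 changed by -0.05 in H1993 and -0.60 in H1693 (0.55, 0.00329). TP53BP1 changed by 0.54 in H1993 and -0.07 in H1693 (0.61, 0.0117).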
